A study of Mus musculus with 35 samples.

Results

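Old mouse liver was compared between 2 states 24 h after surgery: partial hepatectomy (PH), in which 70% of the liver mass was cut away, and a sham operation. The comparison rested on 5 of the 35 arrays of the study, 3 from "24h partial hepatectomy old" and 2 from "24h sham partial hepatectomy old", and covered all 18193 genes that a probe set with a single gene symbol represented. All 5 livers came from male CB6F1 mice, a hybrid strain, aged 25 to 27 months and supplied by the National Institute on Aging. Sham livers were handled but not resected, and both groups shared avertin injection and isoflurane inhalation. Other arrays served as points of reference: 3 untreated old livers at 0 h, the old PH and sham livers of 38 and 48 h (3 and 2 arrays per time), and young livers of 24 h (5 to 6 months, from Jackson Laboratories, 3 PH and 2 sham arrays). The labels do not state whether replicates were separate animals. The p-values therefore cover only the differences among these samples, which may be technical. Whole liver RNA was measured, in which fewer cells of a type and less RNA per cell cannot be told apart.

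After resection the remaining lobes grow back by division of mature cells rather than from the cut edge. Hepatocytes are first primed by cytokines and immediate early transcription factors, then driven into the cell cycle by growth factors such as HGF and the EGF receptor ligands, while they go on supplying blood proteins, bile and glucose. Blood glucose drops, fat from adipose tissue accumulates for a time as droplets in the liver, and in aged animals entry into DNA synthesis is known to come later and to involve fewer cells.

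The hybridised signals identified the tissue: the hepatocyte markers Alb, the main plasma protein, and Apoa1, an HDL apolipoprotein, were near the top of the scale, where the highest signal on any array was 15.01, with Alb at 14.85, 14.80 and 14.88 (log2) in the PH arrays and 14.80 and 14.88 in the sham arrays and Apoa1 at 14.81, 14.84 and 14.77 and 14.84 and 14.79. None of 9 hepatocyte markers passed the test, and their median difference was -0.06. The 3 PH arrays differed from each other more than arrays of most groups. Their root mean square deviation from the group mean over genes was 0.342, 0.178 and 0.285 for replicates 1 to 3, against 0.136 in the sham arrays and 0.087 to 0.202 in all other groups except old PH at 38 h (0.238 to 0.421). The log2 difference between the mean PH and the mean sham array was tested with limma, with a spread per gene pooled over all 35 arrays, and genes are described as having risen or fallen where the Benjamini-Hochberg adjusted p over 18193 genes was below 0.05. By this test 1367 genes rose (7.51% of those tested) and 691 fell (3.8%), 281 and 214 of them by more than 2-fold, while the median difference of all genes was -0.01. PH and sham arrays did not overlap for 36.3% of all genes and for 2023 of the 2058 that passed. The dependence on single arrays was large: 191 genes (1.05%), 142 higher and 49 lower, passed in each of the 5 fits that left out 1 of the compared arrays. The count was 515 without sham replicate 1, 564 without sham replicate 2, and 781, 1259 and 3859 without PH replicates 1, 2 and 3. In a fit on the 5 arrays alone, which leaves 3 residual degrees of freedom, only Igfbp1 passed (2452 genes at an unadjusted p under 0.05). With 1 weight per group, which lowers the weight of the old PH arrays of 24 h to 0.438, 1353 genes passed, 904 higher and 449 lower. Scaling moved the split between directions: with arrays centred on their medians 1069 genes were higher and 814 lower, and with quantile normalization repeated 1003 and 841.

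**Figure D1:**
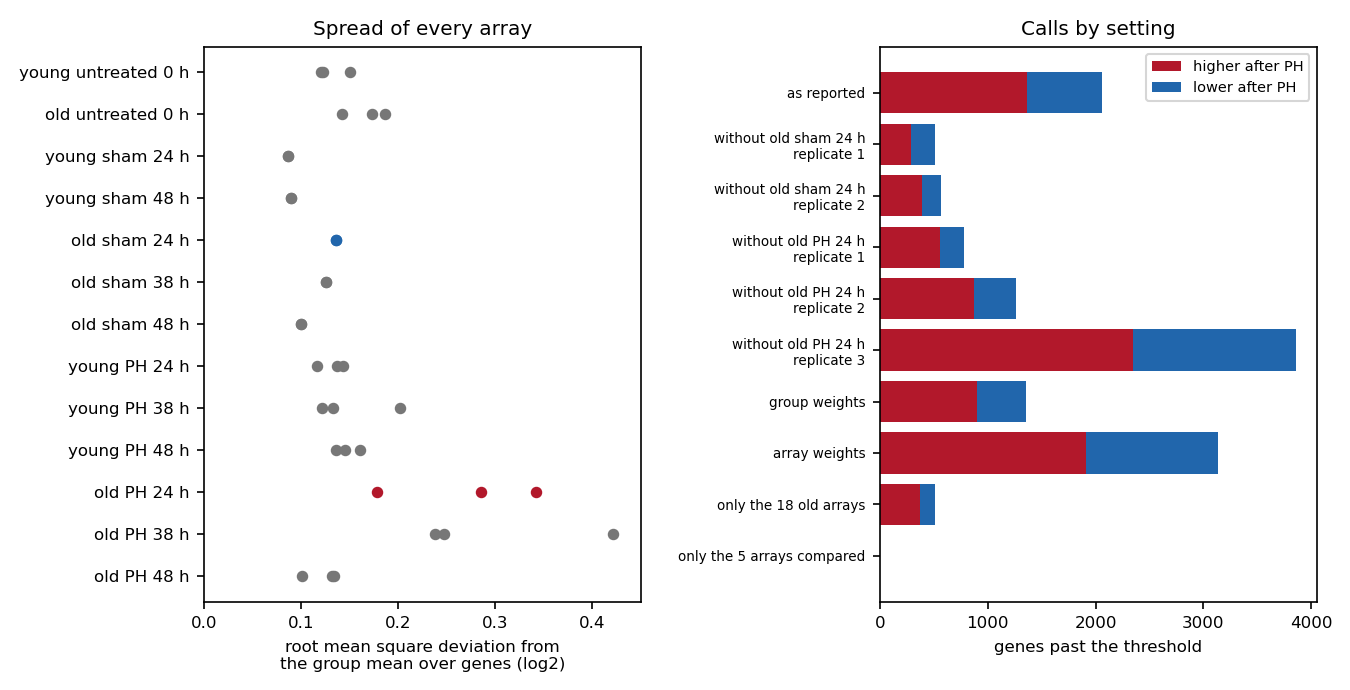
Left, root mean square deviation of every array from its group mean over 18193 genes (log2 units), by group, with the old PH arrays of 24 h in red and the old sham arrays of 24 h in blue; the arrays of a sham pair deviate equally by construction, and young sham 38 h, with 1 array, is not drawn. Right, number of genes past the threshold in the comparison of old PH with old sham at 24 h, as reported and under other settings, with 2058 as reported and 1 in a fit on the 5 compared arrays.

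Replicate 1 of the PH livers lay furthest from sham. It held the highest level among the PH arrays in 932 of the 1367 genes that rose (68.2%) and the lowest in 441 of the 691 that fell (63.8%), whereas replicate 3 did so for 99 and 57. Over 36 pathway lists, the mean level of a list lay furthest from the sham mean in replicate 1 for 25 lists and nearest to it in replicate 3 for 26. Each list is described below by its members that passed, with the range of that count over the 5 fits with 1 array left out in brackets, and by the median difference of all measured members, for some lists with its range over those fits. The fewest calls came without sham replicate 1, alone or tied, unless another array is named. Each count from the fit on all arrays stands against the 7.51% of all genes that rose and the 3.8% that fell. The counts in brackets do not, because the share of all genes that passed differed from fit to fit.

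**Figure D2:**
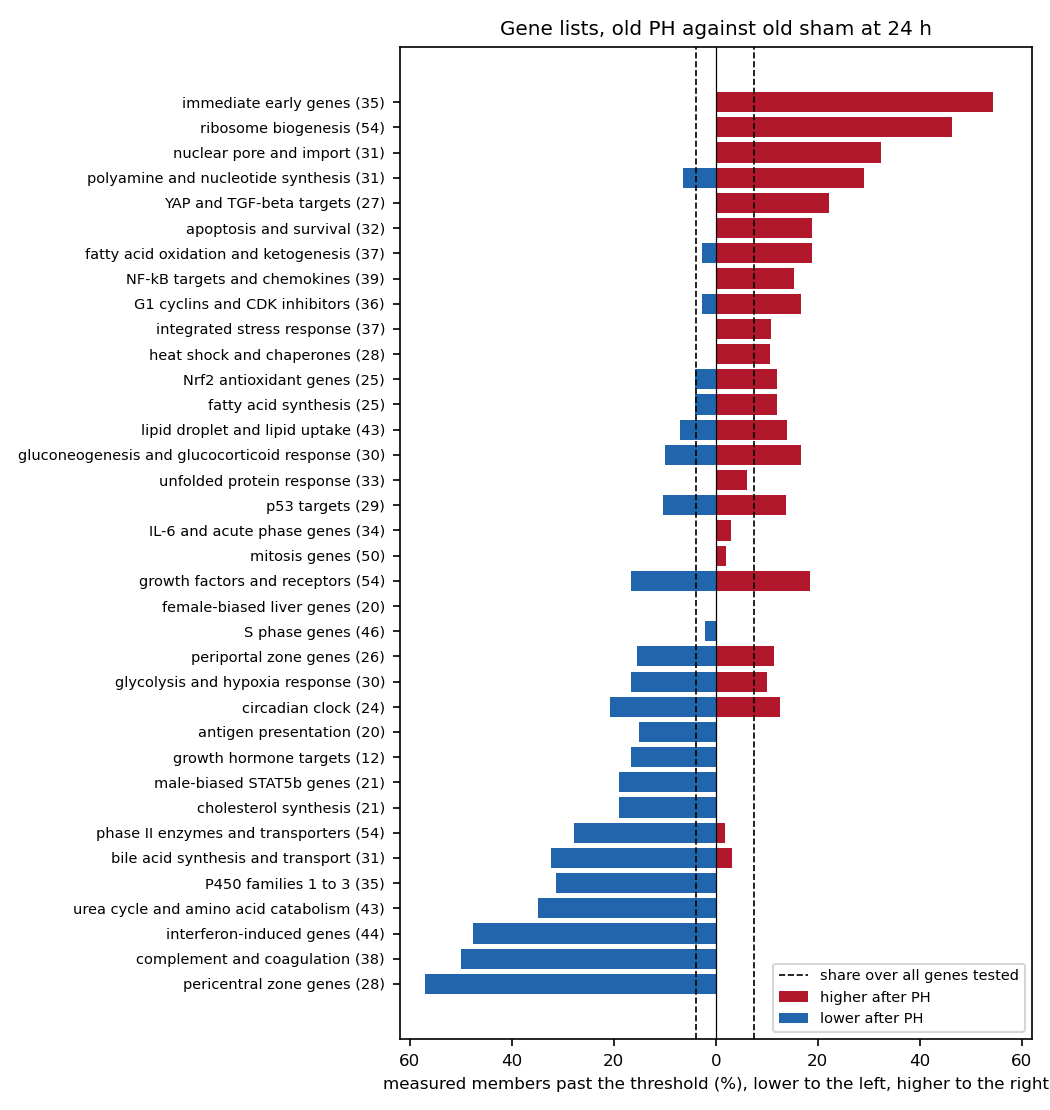
Share of the measured members of 36 gene lists (number measured in brackets) that passed the threshold, higher after PH to the right in red and lower to the left in blue. Dashed lines mark the shares over all 18193 genes, 7.51% higher and 3.8% lower; immediate early genes (19 of 35) and pericentral genes (16 of 28) stand at the ends.

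Among genes that passed and whose arrays did not overlap, the largest rise was that of Igfbp1. It encodes a secreted hepatocyte protein that binds insulin-like growth factors and is known as an immediate early gene of liver regeneration. Its levels were 14.06, 13.99 and 13.55 in the 3 PH arrays and 9.26 and 8.96 in the 2 sham arrays, a difference of 4.76 ± 0.71 (log2 ± standard error of the fit, 27.1-fold, adjusted p = 0.000465). Every PH array was more than 4 log2 units above both sham arrays. The untreated livers, at 11.11 to 12.66, lay between the groups: Igfbp1 was below the untreated level after sham (-2.65, adjusted p = 0.02) and above it after PH (2.11, adjusted p = 0.0179). Cdkn1a, which encodes the cyclin-dependent kinase inhibitor p21, stood at 12.95, 12.15 and 11.35 after PH and 8.72 and 8.78 after sham, and rose by 3.40 ± 0.46 (adjusted p = 0.000269). Its sham arrays lay somewhat below the untreated livers (9.04 to 9.12), and the PH arrays were clear of both. Tnfrsf12a, the receptor of the cytokine TWEAK, was at 13.61, 13.31 and 12.21 against 9.76 and 9.86 (3.23 ± 0.56, adjusted p = 0.00145). Plscr1, a phospholipid scramblase, was at 12.32, 11.94 and 10.97 against 8.67 and 8.78 (3.02 ± 0.63, adjusted p = 0.00486). Untreated livers were at 9.59 to 9.75 for Tnfrsf12a and 8.62 to 8.73 for Plscr1, close to the sham arrays in both cases.

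Other named rises are not members of a common list, and Thbd is also an endothelial marker in a list below. Tubb6, a beta tubulin, was at 12.46, 11.34 and 10.93 after PH and 8.15 and 8.65 after sham (3.17 ± 0.44, adjusted p = 0.000269). Thbd, thrombomodulin, an anticoagulant receptor of endothelial cells, was at 11.11, 11.06 and 9.88 against 7.88 and 7.38 (3.06 ± 0.57, adjusted p = 0.00233). Anxa2, a membrane-binding annexin, rose by 3.10 ± 0.69, Nid1, a basement membrane protein, by 3.26 ± 0.67, and Cd14, the lipopolysaccharide co-receptor, by 3.44 ± 1.03. The arrays of the groups did not overlap for any of these 5 genes, which was a condition of naming for all but Thbd. A further probe set for Tubb6 (-0.10) and for Anxa2 (-0.13) showed no rise, so these changes rest on the brighter probe set. The dimmer probe sets of Nid1 were at 0.87 and 0.39. Of these 9 genes 6 passed in each of the 5 fits with 1 array left out. These 6 are the rises that a naming rule took for that property, so the count is no measure of stability. Without sham replicates 1 and 2 and PH replicates 1, 2 and 3 in turn, 6, 8, 8, 8 and 9 passed.

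**Figure D3:**
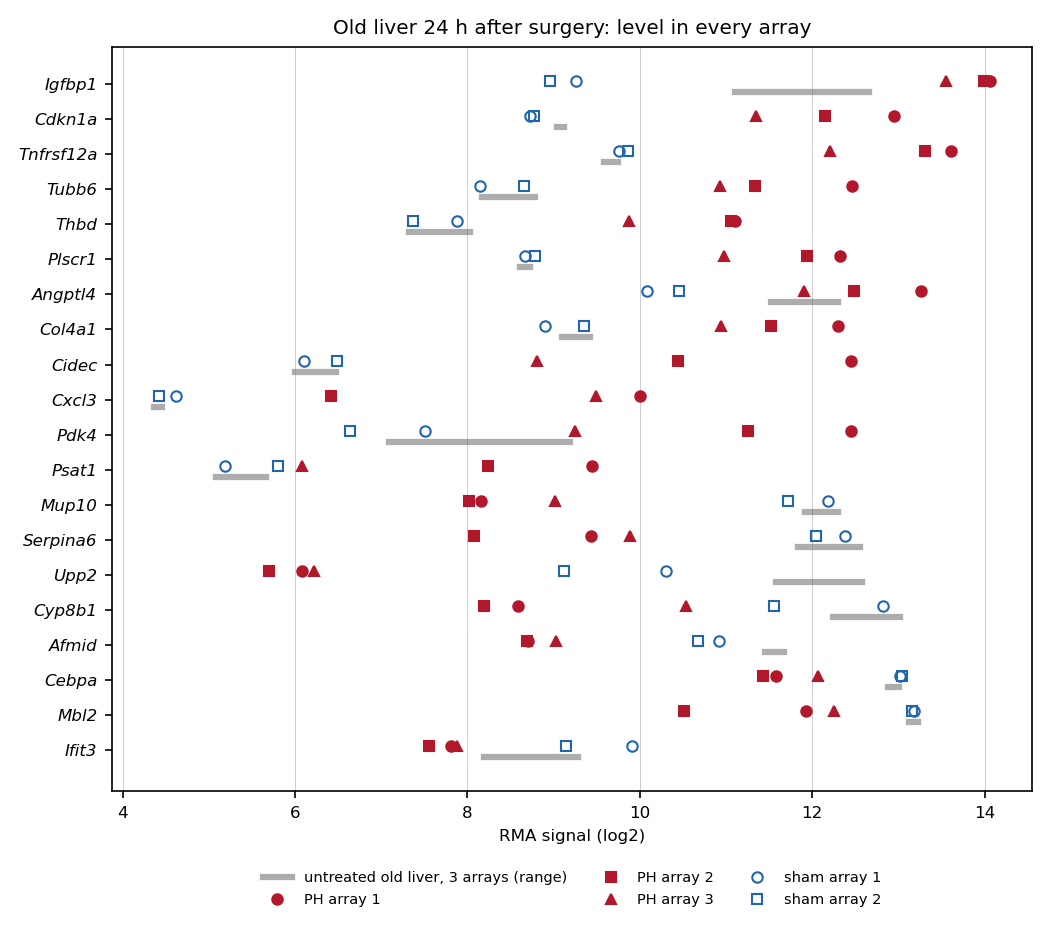
Level of 20 named genes (RMA signal, log2) in each of the 3 PH arrays (filled red) and 2 sham arrays (open blue) of old liver at 24 h, with the range of the 3 untreated old livers as a grey bar. In all 20 genes the PH arrays lie on one side of both sham arrays, a condition of naming for the largest rises and falls. The PH arrays of Cidec spread from 8.80 to 12.45, those of Cebpa from 11.43 to 12.07.

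Immediate early genes, transcription factors and feedback regulators that respond to signals without new protein synthesis, stood above sham. Of 35 measured members 19 rose (4 to 23 with 1 array left out, fewest without sham replicate 2) and 0 fell, with a median difference of 1.01 (0.94 to 1.06). Ier3, an NF-kB-induced survival gene, was at 12.32, 9.68 and 9.49 after PH and 7.17 and 7.22 after sham (3.30 ± 0.96, adjusted p = 0.0298), with PH replicate 1 far above the others. Egr1, a zinc finger transcription factor, was at 11.51, 12.85 and 12.23 against 10.18 and 8.30 (2.95 ± 0.72, adjusted p = 0.0115). Fos, a subunit of the AP-1 transcription factor, was at 9.02, 10.30 and 9.93 against 7.41 and 7.34 (2.38 ± 0.56, adjusted p = 0.00984). Dusp1, a phosphatase that switches off MAP kinases, was at 12.17, 10.40 and 10.46 against 8.42 and 9.35 (2.13 ± 0.60, adjusted p = 0.0243). Klf10 (2.06 ± 0.51) and Myc (1.44 ± 0.35), which drives cell growth, rose as well. Cebpb rose by 0.70 ± 0.14, and Atf3, a stress-induced factor, was at 1.25 ± 0.51 without passing (adjusted p = 0.109).

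For several of these genes the contrast lay on the sham side. The untreated livers stood at 9.40 to 9.99 for Fos, 11.50 to 11.74 for Dusp1 and 9.18 to 9.65 for Klf10. Against them the sham livers were lower, with differences of -2.23 (adjusted p = 0.0139), -2.71 (adjusted p = 0.00642) and -2.35 (adjusted p = 0.00603), while the PH livers were at 0.14, -0.59 and -0.29 without passing. For Egr1 the untreated livers spanned 9.99 to 12.2. Against them its sham livers were at -2.08 (adjusted p = 0.0625) and its PH livers at 0.87 (adjusted p = 0.348), neither passing. In contrast, Ier3 (3.39) and Myc (1.15) were above the untreated livers after PH and at 0.09 and -0.29 after sham. Over the whole list the mean level relative to the untreated arrays was 0.83, 0.62 and 0.58 in the PH arrays and -0.40 and -0.49 in the sham arrays. These 3 comparisons share arrays and are given side by side only. In sham against untreated old liver 5.02% of all genes were higher and 5.34% lower, and in PH against untreated 11.7% and 12.6%. Among the 7 changed genes named with the immediate early list, 0 passed in each fit with 1 array left out (3 and 1 without sham replicates 1 and 2, 3, 7 and 7 without PH replicates 1 to 3).

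The promoters of Fos and Dusp1 are shown as examples that held matches. Cyclic AMP response elements (CRE, TGACGTCA), the shorter TGACGT and the TATA box TATAAA were searched on both strands. The windows were those of RefSeq, from 250 bases before to 50 after each start site. The sequences are the 200 bases before the start, read 5′ to 3′ on the strand of the gene (GRCm38.p6), with matches in capitals. That of Fos lies at chr12:85473690-85473889 on the plus strand, and that of Dusp1 at chr17:26508473-26508672 on the minus strand.
Fos: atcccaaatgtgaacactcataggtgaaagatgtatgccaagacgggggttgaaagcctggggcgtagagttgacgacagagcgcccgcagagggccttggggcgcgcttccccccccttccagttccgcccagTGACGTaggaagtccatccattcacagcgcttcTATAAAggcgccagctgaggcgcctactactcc
Dusp1: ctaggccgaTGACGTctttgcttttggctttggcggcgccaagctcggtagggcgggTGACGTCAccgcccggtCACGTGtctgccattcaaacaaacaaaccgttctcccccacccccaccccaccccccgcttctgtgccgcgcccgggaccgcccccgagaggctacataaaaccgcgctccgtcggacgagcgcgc
Fos holds TGACGT from 66 to 61 bases and the TATA box from 33 to 28 bases before the start. Dusp1 holds the full CRE from 143 to 136 bases before the start, TGACGT also from 191 to 186 bases, and an E-box, CACGTG, from 126 to 121 bases. No motif searched matched in the window of Ier3, the largest rise of this list, or in that of Igfbp1. Among 14452 measured genes with a window, 2.92% held a CRE and 11% TGACGT, which every CRE contains. Of the 28 immediate early genes with a window, 10.7% held a CRE and 28.6% TGACGT. Of the 14 among them that rose, 21.4% held a CRE and 35.7% TGACGT. These are matches of letters, with no test.

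Chemokine genes of the neutrophil-attracting CXC family rose after PH, while in the acute phase list Il6 alone passed. In the list of NF-kB targets and chemokines, 6 of 39 members rose (0 to 5 with 1 array left out, 0 without sham replicate 2), and the median was 0.25. Cxcl3 was at 10.01, 6.42 and 9.50 after PH and 4.62 and 4.42 after sham (4.12 ± 0.89, adjusted p = 0.00573). Cxcl2 was at 10.45, 7.82 and 9.64 against 5.51 and 5.58 (3.75 ± 0.94, adjusted p = 0.0136). Sham and untreated signals of Cxcl3 (4.36 to 4.46 in untreated livers) were near the low end of all signals, which ran from 3.63 to 15.01, so the size of its difference, here and in later comparisons, is uncertain. In both genes PH replicate 2 was the lowest of the PH arrays and still above the sham and untreated livers. Ccl2, which attracts monocytes, rose by 1.63 ± 0.48, Tnfaip3, an inhibitor of NF-kB signalling, by 1.77 ± 0.50, and Cxcl5 by 0.78 ± 0.21. A further probe set for Tnfaip3 was at 0.13. Il6, the cytokine that primes hepatocytes, rose by 0.60 ± 0.11 (adjusted p = 0.00233) from a dim signal, 4.44 and 4.54 in the sham arrays and 4.95, 5.07 and 5.27 in the PH arrays. It was the only member of 34 in the IL-6 and acute phase list to pass, and the list's median was -0.01. Against untreated livers 7 of the 34 were higher and 0 lower after sham, and 7 higher and 1 lower after PH. Of all genes 5.02% were higher after sham and 11.7% after PH in these 2 comparisons, which share arrays. Saa2, a serum amyloid and classic acute phase protein, was near the top of the scale in both groups, at 14.22, 14.75 and 14.85 and 14.93 and 14.84 (-0.28 ± 0.56), against 11.07 to 14.25 in untreated livers. Socs3, a feedback inhibitor of IL-6 signalling, was at 0.23 ± 0.64 without passing. Neutrophil markers were measured beside these: 0 of 12 passed and their median was 0.17. S100a9 was at 1.88 ± 0.77 (adjusted p = 0.11), and the granule genes Mpo and Elane were at -0.25 ± 0.17 and -0.14 ± 0.17. With untreated livers as reference, 5 of these 12 markers were higher in PH livers but 0 in sham livers. The list's mean level relative to untreated livers was 0.68, 0.26 and 0.48 in the PH arrays, above both sham arrays (0.15, 0.01). Single untreated arrays ranged from -0.48 to 0.46 on it. Prtn3, proteinase 3 of neutrophil granules and no member of that list, fell: it was at 6.39, 6.5 and 7.53 after PH and 11.49 and 8.22 after sham (-3.05 ± 0.89, adjusted p = 0.0298), with the sham arrays more than 3 log2 units apart and untreated livers at 7.14 to 10.11. The part of neutrophils in the chemokine values was not tested. With 1 array left out, 1 of the 7 changed genes named with the chemokines passed each time, 2 and 2 without sham replicates 1 and 2 and 4, 5 and 4 without PH replicates 1 to 3.

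Of 54 growth factors and receptors 10 rose (2 to 12 with 1 array left out, fewest without sham replicate 1) and 9 fell (0 to 15, 0 without sham replicate 2), and the median was 0.04. Ligands that rose were hepatocyte growth factor Hgf (0.61 ± 0.17), the main mitogen of hepatocytes, and the EGF receptor ligands Tgfa (0.85 ± 0.23), Hbegf (0.74 ± 0.23), Ereg (0.98 ± 0.28) and Btc (0.97 ± 0.26). The WNT enhancer Rspo3 rose by 1.18 ± 0.20, as did the receptor Tgfbr1 by 0.86 ± 0.26, while the ligands Vegfa (-0.64 ± 0.20) and Bmp6 (-0.62 ± 0.13) and the HGF activator Hgfac (-0.46 ± 0.13) fell. Angptl4, a secreted inhibitor of lipoprotein lipase, was at 13.26, 12.49 and 11.90 after PH and 10.08 and 10.46 after sham (2.28 ± 0.45, adjusted p = 0.0035), but untreated livers were at 11.52 to 12.30, and the sham livers were lower than these (-1.60, adjusted p = 0.0261). Fgf21, a fasting and stress hormone of the liver, was at 9.71, 10.51 and 7.79 against 7.84 and 7.74 (1.54 ± 0.48, adjusted p = 0.0382), and PH replicate 3 overlapped the sham arrays. Receptors that fell were Erbb3 (-0.76 ± 0.20), a partner of the EGF receptor, the insulin receptor Insr (-0.84 ± 0.18), the FGF21 co-receptor Klb (-1.05 ± 0.31) and the receptor of Vegfa, Kdr (-0.75 ± 0.20). The growth hormone receptor Ghr was at 10.50, 11.50 and 12.70 against 13.27 and 13.30 and fell (-1.72 ± 0.51, adjusted p = 0.0317), most in PH replicate 1. Igfals, which carries insulin-like growth factors in blood and depends on growth hormone, fell (-1.76 ± 0.41). These 2 were the members of a list of 12 growth hormone targets that fell, none rose, and its median was -0.16. The call was kept in every fit with 1 array left out by 1 of the 18 changed genes named with the growth factors, and by 3 and 2 without sham replicates 1 and 2 and 7, 11 and 18 without PH replicates 1 to 3.

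Male-biased genes, which depend on pulses of growth hormone through STAT5b, held further large falls. Mup10, a major urinary protein that male mice secrete as a pheromone carrier, was at 8.16, 8.02 and 9.01 after PH and 12.18 and 11.72 after sham (-3.55 ± 0.57, adjusted p = 0.000809), and its call held in each fit without 1 array. The sulfotransferase gene Sult2a8 was at 9.17, 9.82 and 11.30 against 13.38 and 13.48 (-3.34 ± 0.89, adjusted p = 0.0192), and it passed only without PH replicate 3 among those fits. Of 21 male-biased genes 4 fell (1 to 12, fewest without PH replicate 1) and 0 rose, with a median of -0.82 (-0.95 to -0.68). Of 20 female-biased genes 0 passed in limma, and their median was -0.02.

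Genes of DNA replication and mitosis did not pass at 24 h, with the exceptions named here, although Cdkn1a and Myc had risen. Of 46 S phase genes 0 rose and 1 fell (0 to 2 with 1 array left out), with a median of 0.09 (0.03 to 0.18). The gene that fell was Mcm10, a replication initiation factor (-1.97 ± 0.49, adjusted p = 0.013). Its 3 probe sets disagreed, from -1.97 to 0.09. Rrm2, a subunit of ribonucleotide reductase, was at 10.56, 7.73 and 8.07 after PH and 6.99 and 6.97 after sham (1.81 ± 0.60, adjusted p = 0.0503). Its 3 probe sets ranged from 1.13 to 2.05, and 1 of them passed when every probe set was tested. PH replicate 1 was more than 2 log2 units above the other PH arrays, and all PH arrays were above both sham arrays. Mcm6, a subunit of the replicative helicase, was at 8.0, 7.62 and 8.87 against 7.26 and 7.79 (0.64 ± 0.58), and cyclin E2, Ccne2, at 4.96, 4.84 and 5.23 against 4.76 and 4.80 (0.23 ± 0.39). Cyclin D1, Ccnd1, which commits hepatocytes to the cycle, was at 8.75, 10.16 and 10.79 against 10.32 and 9.64 (-0.08 ± 0.54), with the groups overlapping and PH replicate 1 the lowest array. Of 50 mitosis genes 1 rose (0 to 1), the spindle checkpoint gene Bub3 (0.51 ± 0.16, 2 of its 5 probe sets in the opposite direction), and the median was -0.04. The proliferation marker Mki67 (-0.30 ± 0.67), the mitotic kinase Cdk1 (-0.10 ± 0.50) and the mitotic transcription factor Foxm1 (-0.13 ± 0.14) did not pass.

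Among 36 G1 cyclins, kinases and inhibitors 6 rose (1 to 7 with 1 array left out) and 1 fell (0 to 2), with a median of 0.12. Beside Cdkn1a and Myc these were the kinases Cdk4 (0.36 ± 0.10), Cdk6 (0.69 ± 0.18) and Cdk7 (0.61 ± 0.14, 3 of 5 probe sets opposite) and the transcription factor E2f3 (0.52 ± 0.16). Rbl2, a pocket protein of the retinoblastoma family that holds cells in quiescence, fell (-0.78 ± 0.26). Targets of p53 did not move one way: 4 of 29 rose (1 to 5), Cdkn1a, the antiproliferative gene Btg2 (1.80 ± 0.59), the nuclease Aen (0.97 ± 0.29) and Zmat3 (0.75 ± 0.17), and 3 fell (0 to 3), among them Dcxr (-1.35 ± 0.30), a xylulose reductase. Their median was 0.07. Leaving out sham replicate 1 or 2 kept 1 or 4 of the 13 changed genes named with the cell cycle and p53 lists past the threshold, leaving out PH replicate 1, 2 or 3 kept 3, 8 or 13, and 1 passed each time.

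Many genes that build ribosomes rose. Of 54 genes of ribosome biogenesis 25 rose (3 to 37 with 1 array left out, fewest without sham replicate 1) and 0 fell, with a median of 0.51 (0.32 to 0.65). Nhp2, a protein of the snoRNPs that modify ribosomal RNA, was at 11.73, 10.81 and 10.36 after PH and 9.73 and 9.67 after sham (1.27 ± 0.29, adjusted p = 0.0078). The small-subunit assembly factor Tsr1 was at 10.39, 9.91 and 9.56 against 8.77 and 8.85 (1.15 ± 0.24, adjusted p = 0.00486). In both genes PH replicate 3 was the lowest PH array and still above both sham arrays. The snoRNP core proteins Nop58 (1.13 ± 0.29) and Gar1 (1.06 ± 0.25) and the nucleolar protein Lyar (1.07 ± 0.27) rose too. Over the list the mean level relative to untreated livers was 0.70, 0.20 and 0.08 in the PH arrays and -0.22 and -0.20 in the sham arrays, so that replicate 3 was close to the untreated livers. Of 41 cytosolic ribosomal protein genes 14 rose (3 to 21) and 0 fell, by a median of 0.28, led by Rpl12 (1.12 ± 0.20) and Rpsa (0.73 ± 0.12). The E-box CACGTG, a site of MYC family factors among others, was found in 10.2% of all windows of measured genes. It was found in 21.7% of the 46 ribosome biogenesis genes with a window and in 28.6% of the 21 among them that rose, with no test.

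Transport into the nucleus, nucleotide supply and protein turnover moved the same way on fewer genes. Of 31 nuclear pore and import genes 10 rose (2 to 12) and 0 fell, with a median of 0.30. Xpo1, the main export receptor, was at 10.84, 10.58 and 10.12 after PH and 9.44 and 9.50 after sham (1.04 ± 0.17, adjusted p = 0.000747), against 9.94 to 10.21 in untreated livers, so part of the contrast lay in the sham livers. Nup93 (0.92 ± 0.22), a scaffold of the pore, and the import receptor Kpnb1 (0.85 ± 0.23, 4 probe sets from 0.11 to 1.02) rose. Of 31 polyamine and nucleotide genes 9 rose (3 to 11) and 2 fell. Odc1, the first enzyme of polyamine synthesis, was at 12.49, 12.10 and 11.54 against 10.13 and 11.01 (1.47 ± 0.25, adjusted p = 0.00121). The CTP synthase Ctps (1.41 ± 0.28) and spermidine synthase Srm (1.28 ± 0.24) rose, and the serine hydroxymethyltransferase Shmt1 fell (-1.78 ± 0.42). Of 40 proteasome subunits 8 rose (0 to 13, 0 without sham replicate 1), such as Psmd8 (0.98 ± 0.23), and Psmb8, the interferon-inducible subunit of the immunoproteasome, fell (-1.20 ± 0.34). Of the 16 named genes of synthesis and transport, 6 and 9 passed without sham replicates 1 and 2, 9, 13 and 16 without PH replicates 1 to 3, and 5 each time.

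In the integrated stress response list, genes induced by ATF4 when translation is limited, 4 of 37 rose (1 to 9, fewest without sham replicate 1) and the median was 0.15. Psat1, an enzyme of serine synthesis, was at 9.45, 8.24 and 6.09 after PH and 5.19 and 5.80 after sham (2.43 ± 0.64, adjusted p = 0.018), with PH replicate 3 just above the sham arrays. Psph, the next enzyme of that pathway, rose by 0.80 ± 0.21, and Gars, the glycyl-tRNA synthetase, by 0.96 ± 0.19 (adjusted p = 0.00349). The CARE motif TGATGCAA was found in 0.803% of all windows and in 23.3% of those of this list, as a description. Of 33 genes of the unfolded protein response 2 rose (0 to 2), a share below that of all genes, with a median of 0.24: Ero1a (0.60 ± 0.14), an oxidase of the endoplasmic reticulum, and Sec61a1 (0.57 ± 0.15), its translocon channel. Subunits of the CCT chaperonin, which folds actin and tubulin, were the 3 of 28 heat shock and chaperone genes that rose (0 to 6), Cct7 (0.64 ± 0.19), Cct3 (0.58 ± 0.13) and Cct5 (0.54 ± 0.16). Of 25 Nrf2 targets 3 rose (1 to 6) and 1 fell (0 to 3), with a median of 0.11: the sulfiredoxin Srxn1 (1.89 ± 0.54, 1 of 4 probe sets near 0), glutathione synthetase Gss (0.68 ± 0.11, adjusted p = 0.000745) and the thioredoxin reductase Txnrd1 (0.43 ± 0.13) were higher, and the glutathione peroxidase Gpx2 (-0.33 ± 0.08) lower. Heme oxygenase, Hmox1, was at 1.49 ± 0.51 without passing (adjusted p = 0.0578).

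Among 32 genes of apoptosis and survival 6 rose (2 to 8, fewest without sham replicate 2) and 0 fell, with a median of 0.27, and they included genes known for opposite effects. The anti-apoptotic Bcl2l1 (0.88 ± 0.26) and Birc2 (0.60 ± 0.17) rose, as did the pro-apoptotic Bak1 (0.75 ± 0.21) and the caspase Casp2 (0.47 ± 0.12). Tnfrsf12a stands in this list too. Of the 17 named stress and survival genes, 4 and 5 passed without sham replicates 1 and 2, 5, 11 and 17 without PH replicates 1 to 3, and 3 each time.

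Several lipid droplet and fatty acid oxidation genes rose, and some genes of cholesterol synthesis fell. Cidec, a lipid droplet protein that fuses droplets into larger ones, was at 12.45, 10.45 and 8.80 after PH and 6.10 and 6.49 after sham (4.27 ± 1.07, adjusted p = 0.0134). The PH arrays spread over more than 3 log2 units, and the lowest was still more than 2 above the sham and untreated livers (6.00 to 6.48). Its relative Cidea was at 10.08, 9.76 and 7.58 against 6.39 and 6.62 (2.63 ± 0.56, adjusted p = 0.00537), with PH replicate 3 inside the range of untreated livers (7.2 to 8.02). Hilpda, an inhibitor of droplet lipolysis (2.26 ± 0.73), Plin5, which links droplets to mitochondria (1.27 ± 0.30), and the fatty acid transporter Slc27a4 (1.00 ± 0.26) rose. In the droplet and uptake list 6 of 43 rose (0 to 15, 0 without sham replicate 1) and 3 fell (0 to 5), with a median of 0.17. Cidec and Cidea are also markers of adipocytes, and of 8 such markers they were the 2 that passed: the defining adipocyte gene Adipoq was at -1.67 ± 0.83 and Lep at -0.19 ± 0.09 (adjusted p = 0.193 and 0.18). The mean level of the 8 markers relative to untreated livers was 1.46, 1.19 and 0.59 in the PH arrays and -0.12 and 0.72 in the sham arrays. This mean includes Cidec and Cidea. The median difference of the 8 between PH and sham was 0.04, with 4 positive and 4 negative.

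Of 37 genes of fatty acid oxidation and ketogenesis 7 rose (1 to 11) and 1 fell (0 to 4), with a median of -0.03 (-0.19 to 0.08). Pdk4, a kinase that shuts off glucose oxidation in fasting, was at 12.46, 11.26 and 9.24 against 7.51 and 6.64 (3.91 ± 0.99, adjusted p = 0.0145), and the PH arrays lay above the untreated range of 7.09 to 9.19, replicate 3 only just. The mitochondrial thioesterase Acot2 was at 11.08, 11.02 and 9.64 against 8.75 and 8.56 (1.93 ± 0.33, adjusted p = 0.00116). Its cytosolic relative Acot1 was at 8.82, 8.84 and 8.54 against 6.93 and 7.59 (1.47 ± 0.38), yet the PH livers were at -0.22 against untreated ones and the sham livers at -1.70 (adjusted p = 0.00744). Of 25 fatty acid synthesis genes 3 rose (0 to 2) and 1 fell (0 to 4), with a median of -0.17. The gene that fell, Acss2, which activates acetate, was at 8.07, 9.0 and 10.49 against 12.07 and 11.30 (-2.50 ± 0.57, adjusted p = 0.008). Of 21 genes of cholesterol synthesis 4 fell (1 to 13, fewest without sham replicate 1) and 0 rose, with a median of -0.89 (-1.30 to -0.47). Among these the sterol reductase Tm7sf2 was at 11.19, 11.15 and 11.20 against 12.10 and 11.78 (-0.76 ± 0.13, adjusted p = 0.00116), and Sc5d, a sterol desaturase, fell (-1.40 ± 0.41), most in PH replicate 1. The sham arrays differed in this list, at 0.75 and 0.04 relative to untreated livers, and PH replicate 3 lay between them at 0.27. Without sham replicates 1 and 2, 2 and 6 of the 11 named lipid genes passed, without PH replicates 1 to 3 4, 8 and 11, and in all 5 such fits 2.

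Of 31 genes of bile acid synthesis and transport 10 fell (1 to 15 with 1 array left out, fewest without sham replicate 1) and 1 rose, with a median of -0.66 (-0.78 to -0.50). Cyp8b1, the sterol 12-hydroxylase that sets the share of cholic acid, was at 8.59, 8.20 and 10.54 after PH and 12.82 and 11.56 after sham (-3.08 ± 0.68, adjusted p = 0.00649). Akr1d1, the steroid reductase of the same route, was at 7.76, 9.50 and 9.06 against 11.23 and 10.83 (-2.26 ± 0.55). The uptake transporter Slc10a1 fell (-1.69 ± 0.46) and so did Nr1h4, the bile acid receptor FXR (-0.76 ± 0.19). Slc51b, a subunit of the basolateral exporter that removes bile acids from hepatocytes in cholestasis, rose by 1.10 ± 0.35. Cyp7a1, the rate-limiting enzyme of bile acid synthesis, was at 8.11, 8.44 and 7.77 against 11.50 and 8.59 (-1.94 ± 0.72, adjusted p = 0.0805); its sham arrays differed by more than 2 log2 units and the call was not reached.

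Of 43 genes of the urea cycle and amino acid catabolism 15 fell (4 to 23) and 0 rose, with a median of -0.82 (-1.03 to -0.57). Prodh, proline dehydrogenase, was at 8.84, 9.74 and 10.72 against 12.31 and 11.32 (-2.05 ± 0.50, adjusted p = 0.0121), and Hpd, of tyrosine breakdown, at 11.99, 12.63 and 13.72 against 14.35 and 14.24 (-1.51 ± 0.41). In both, PH replicate 3 was the highest PH array and still below the sham arrays. Outside this list, Afmid, of tryptophan breakdown, was at 8.70, 8.70 and 9.03 against 10.93 and 10.68 (-1.99 ± 0.34, adjusted p = 0.00116), with 1 of 4 probe sets at 0.00. Csad, an enzyme of taurine synthesis and no member either, fell (-2.44 ± 0.48). Pck1, which controls gluconeogenesis, was at -0.20 ± 0.22 and G6pc, the glucose-6-phosphatase, at 0.52 ± 0.37, and neither passed. Upp2, a uridine phosphorylase with a daily rhythm, showed the largest fall among genes that passed and whose arrays did not overlap. It was at 6.08, 5.70 and 6.23 after PH against 10.30 and 9.12 after sham and 11.58 to 12.57 in untreated livers (-3.71 ± 0.76, adjusted p = 0.00419). Its 3 probe sets ranged from -4.50 to -0.39, and 2 of them passed when every probe set was tested.

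Hepatocytes differ along the lobule, where WNT signals from the central vein maintain the pericentral zone. Of 28 pericentral genes 16 fell (2 to 22, fewest without sham replicate 1) and 0 rose, with a median of -1.07 (-1.39 to -0.78). Of 26 periportal genes 4 fell (0 to 7, 0 without sham replicate 2) and 3 rose, with a median of -0.27. Whether these lists differ was not tested. Slc13a3, a dicarboxylate transporter, was at 6.33, 7.2 and 8.74 against 11.25 and 9.59 (-3.00 ± 0.68, adjusted p = 0.0076), and Tbx3, a WNT-dependent transcription factor, at 6.55, 7.65 and 8.36 against 10.44 and 9.23 (-2.31 ± 0.50). The 4 probe sets of Slc13a3 ranged from -3.00 to -0.10 and the 5 of Tbx3 from -2.31 to -0.05. In each gene 2 passed when every probe set was tested. Glul, glutamine synthetase of the innermost pericentral cells, fell (-1.21 ± 0.33), as did the WNT receptor partner Lgr5 (-0.96 ± 0.24) and Cyp2e1 (-0.45 ± 0.12). On the periportal side the lung and liver P450 gene Cyp2f2 (-1.65 ± 0.35) and Etnppl (-1.93 ± 0.59) fell, and the cell adhesion gene Cdh1 (1.68 ± 0.49) and the ductal factor Sox9 (1.38 ± 0.29) rose. Sham replicate 1 was high on the pericentral list, at 0.48 relative to untreated livers against -0.07 for sham replicate 2, and low on the periportal one (-0.58 against -0.13). The 3 PH arrays were at -1.54, -0.87 and -0.48 on the pericentral list, below both.

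Of 35 P450 genes of families 1 to 3, 11 fell (1 to 15, fewest without sham replicate 2) and 0 rose, among them Cyp2c54 (-1.87 ± 0.49) and Cyp1a2 (-1.39 ± 0.40). Of 54 phase II enzymes and transporters 15 fell (5 to 25) and 1 rose, with Gsta3 (-1.99 ± 0.43), a glutathione transferase, and Fmo1 (-2.16 ± 0.61), a flavin monooxygenase, among the falls. Cebpa, the transcription factor of mature hepatocytes, was at 11.58, 11.43 and 12.07 against 13.02 and 13.04 and fell (-1.34 ± 0.19, adjusted p = 0.000269), while Hnf4a, another such factor, was at -0.23 ± 0.09 (adjusted p = 0.0995). Afp, the fetal counterpart of albumin, rose by 0.99 ± 0.23 from 6.34 and 6.66 to 7.71, 7.85 and 6.93. Its 5 probe sets ranged from 0.10 to 2.92, and 3 of them passed when every probe set was tested. Other large falls lay outside these lists. Keg1 was at 7.03, 8.22 and 11.04 against 11.40 and 12.09 (-2.98 ± 0.83) and Pbld1 at 6.57, 9.01 and 9.66 against 10.87 and 10.74 (-2.40 ± 0.70), most in PH replicate 1. Nat8f1 (-1.91 ± 0.37) and Ppm1k, a phosphatase that activates branched-chain amino acid breakdown (-1.89 ± 0.40), were named because they passed in each fit with 1 array left out. The C/EBP motif TTGCNNAA was found in 10.8% of all windows and in 16% of those of the genes that fell, with no test. The 29 changed genes named with hepatocyte metabolism, Sox9, Cdh1, Afp and the transcription factors included, passed in 7 and 15 cases without sham replicates 1 and 2, in 16, 20 and 29 without PH replicates 1 to 3, and in 5 each time.

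**Figure D4:**
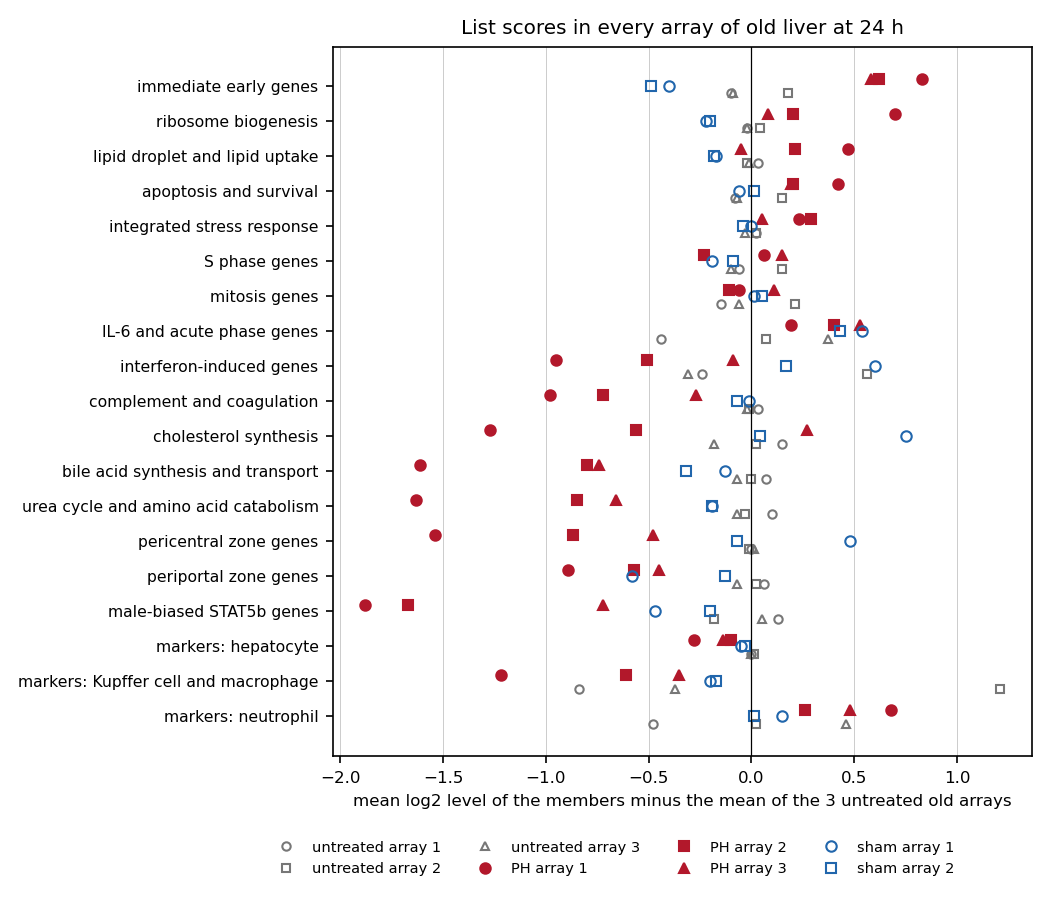
Mean log2 level of the measured members of 19 lists in each array of old liver, relative to the mean of the 3 untreated old arrays (0): PH arrays filled red, sham arrays open blue, untreated arrays open grey. PH replicate 1 lies furthest left in most metabolic lists (bile acid list -1.61, -0.80 and -0.74 in replicates 1 to 3), and untreated replicate 2 stands apart in Kupffer cell markers (1.21).

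Of 38 genes of complement and coagulation, plasma proteins made mainly by hepatocytes, 19 fell (3 to 28 with 1 array left out, fewest without sham replicate 1) and 0 rose, with a median of -0.57 (-0.71 to -0.42). Mbl2, a mannose-binding lectin, was at 11.93, 10.52 and 12.25 after PH and 13.19 and 13.16 after sham (-1.61 ± 0.32, adjusted p = 0.00383). Coagulation factor F7 was at 10.45, 10.28 and 11.41 against 11.89 and 11.87 (-1.17 ± 0.28), and the complement protease C1s1 fell (-1.05 ± 0.25). The sham arrays lay inside or just below the untreated range in these 3 genes, which was 13.12 to 13.23 for Mbl2. Factors F9 (-0.75 ± 0.20) and F10 (-0.86 ± 0.24), protein C, Proc (-0.42 ± 0.11), antithrombin, Serpinc1 (-0.28 ± 0.08), and plasminogen, Plg (-0.38 ± 0.10), fell too. Serpina6, which carries glucocorticoids in blood, was at 9.44, 8.08 and 9.88 against 12.38 and 12.05 (-3.08 ± 0.60, adjusted p = 0.00312). Of 30 genes of gluconeogenesis and the glucocorticoid response 5 rose (0 to 7, 0 without sham replicate 2) and 3 fell (1 to 5, fewest without sham replicate 2), with a median of -0.09. Serpina6 was among those that fell, and Fkbp5 (1.24 ± 0.37, 1 of 3 probe sets opposite), Per1 (1.10 ± 0.35) and Zbtb16 (1.06 ± 0.30, with PH replicate 3 between the sham arrays) were among those that rose. Of the 12 changed genes named with the plasma proteins and the glucocorticoid list, 3 and 3 passed without sham replicates 1 and 2, 2, 6 and 12 without PH replicates 1 to 3, and 2 each time.

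Interferon-induced genes, which encode antiviral effectors, were lower after PH than after sham. Of 44 measured members 21 fell (1 to 31 with 1 array left out, fewest without sham replicate 1) and 0 rose, with a median of -0.84 (-1.13 to -0.53). Ifit3, which binds viral RNA complexes, was at 7.81, 7.56 and 7.88 after PH and 9.91 and 9.14 after sham (-1.78 ± 0.24, adjusted p = 0.000269). Ifit1 was at 7.09, 7.47 and 8.37 against 10.94 and 8.93 (-2.29 ± 0.48), with sham replicate 1 above the untreated range of 8.30 to 9.66. Irf7, the transcription factor that amplifies the response, was at 8.72, 9.43 and 9.82 against 11.83 and 10.39 (-1.79 ± 0.38), and the guanylate-binding protein Gbp3 at 6.29, 6.72 and 7.51 against 9.34 and 8.33 (-2.0 ± 0.48). The untreated livers themselves varied on this list, at -0.24, 0.56 and -0.31 around their mean, where the PH arrays were at -0.95, -0.51 and -0.09 and the sham arrays at 0.60 and 0.17. PH replicate 3 thus lay inside the untreated range. In antigen presentation 3 of 20 genes fell (1 to 9, fewest without sham replicate 2), with a median of -0.46, including B2m (-0.35 ± 0.07, adjusted p = 0.00294), the invariant chain of MHC class I. Kupffer cell and macrophage markers had a median difference of -0.69. Of 14 such markers 1 passed, Clec4f (-1.15 ± 0.37), the defining lectin of Kupffer cells, and 0 rose; Adgre1 was at -0.46 ± 0.31 and Cd68 at 1.11 ± 0.55. Their summed level was between 8.85 and 9.71 (mean log2 over the list) in the PH arrays and 9.87 to 9.90 in the sham arrays, and its part in the interferon values was not tested. Of the 11 changed genes named with the interferon list, antigen presentation and Kupffer cell markers, 2 and 8 passed without sham replicates 1 and 2, 4, 9 and 11 without PH replicates 1 to 3, and 2 each time.

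The interferon-stimulated response element (ISRE, GAAANNGAA on either strand) was searched in the same promoter windows, since these genes moved together. It was found in 8.7% of 14452 genes, in 18 of the 31 list members with a window (58.1%) and in 10 of the 13 that fell and had one (76.9%), with no test. The 30 bases around the match nearest to the start site are shown for 6 of those 10, 5′ to 3′ on the strand of the gene, with ISRE matches in capitals. They lie at chr19:34640795-34640824 (plus strand), chr19:34583417-34583446 (plus), chr5:120907526-120907555 (minus), chr3:142559996-142560025 (plus), chr11:48871425-48871454 (minus) and chr11:58199512-58199541 (plus) of GRCm38.p6.
Ifit1: cagtctcagtTTCAGTTTCtcactgctgac
Ifit3: tactttcctcTTCCCTTTCacaaacactga
Oas1a: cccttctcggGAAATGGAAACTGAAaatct
Gbp3: cagtTTCAGTTTCTATTTCccagatccctg
Irgm1: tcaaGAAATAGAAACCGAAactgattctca
Igtp: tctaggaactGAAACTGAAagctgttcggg
The matches began 84, 102, 14, 38, 24 and 34 bases before the start site in this order. Oas1a (-1.46 ± 0.35), a sensor of double-stranded RNA, and the immunity-related GTPases Irgm1 (-0.98 ± 0.25) and Igtp (-1.24 ± 0.33) fell with the genes described above. A match describes the letters only, and Irf7, Irf9 and Oasl2, which also fell, held none before the start.

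Some matrix and mechanical-response genes rose. In the collagen family as a whole 7.14% of genes rose, close to the 7.51% of all genes. Of 27 targets of YAP and TGF-beta 6 rose (0 to 9 with 1 array left out, 0 without sham replicate 1) and 0 fell, with a median of 0.21. Thbs1, thrombospondin, was at 9.36, 7.79 and 8.96 after PH and 6.08 and 6.10 after sham (2.61 ± 0.63, adjusted p = 0.0113). Ccn2, a YAP target and matrix regulator, was at 10.24, 10.62 and 9.77 against 7.88 and 8.30 (2.12 ± 0.51), but untreated livers were at 9.50 to 10.69 and the sham livers below them (-1.88, adjusted p = 0.02). The basement membrane collagen Col4a1 was at 12.30, 11.53 and 10.95 against 8.90 and 9.35 (2.47 ± 0.44, adjusted p = 0.00176), and its partner chain Col4a2 at 11.08, 10.67 and 10.01 against 8.65 and 8.99 (1.76 ± 0.31). With Col13a1 (0.93 ± 0.27) these were the 3 of 42 collagen genes that rose (2 to 4), and the median of the family was -0.06. Of 18 stellate cell and matrix markers 3 rose (0 to 3) and 0 fell, among them Timp1 (1.18 ± 0.36), an inhibitor of matrix proteases, and Pdgfra (0.74 ± 0.20). Their mean level relative to untreated livers was -0.06, 0.18 and 0.72 in the PH arrays and -0.40 and 0.45 in the sham arrays, so the groups overlapped. Leaving out an array kept 2 and 4 of the 7 named matrix genes (sham replicates 1 and 2) and 4, 6 and 6 (PH replicates 1 to 3), and 2 passed each time.

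Of 24 circadian clock genes 5 fell (1 to 6 with 1 array left out) and 3 rose (0 to 3), with a median of 0.26 (0.09 to 0.20 over the same fits). Dbp, a clock output factor, was at 9.30, 7.05 and 6.90 after PH and 11.12 and 10.27 after sham (-2.94 ± 0.78, adjusted p = 0.0183), while 3 untreated livers spanned 8.10 to 11.20. The clock repressor Nr1d1 was at 9.59, 8.99 and 8.12 against 10.23 and 9.95 (-1.19 ± 0.30), and its relative Nr1d2 fell (-1.16 ± 0.36). Cry1, a repressor of the core loop, was at 8.02, 7.55 and 7.01 against 5.26 and 6.82 (1.49 ± 0.36), with the sham livers below the untreated ones (-1.55, adjusted p = 0.00966). Arntl, the core activator, was at 0.65 ± 0.40 without passing. The labels give no time of day, so its part in these values was not tested. In glycolysis and the hypoxia response 3 of 30 rose (0 to 5) and 5 fell (0 to 6), with a median of 0.09: the pyruvate kinase Pkm (1.40 ± 0.41) and the glucose transporter Slc2a1 (1.16 ± 0.34) were higher, and Aldoc (-1.34 ± 0.32), Bnip3 (-0.81 ± 0.19) and Vegfa (-0.64 ± 0.20) lower. Of 82 genes of the respiratory chain 1 rose (0 to 4), Atp5g3 (0.20 ± 0.07), and of 37 kinesin genes 1 (0 to 4, 0 without sham replicate 2), Kif2a (0.55 ± 0.15, 1 of 5 probe sets opposite). Among the 11 changed genes named with the clock, glycolysis, respiratory chain and kinesin lists, 1 and 4 passed without sham replicates 1 and 2, 6, 6 and 10 without PH replicates 1 to 3, and 0 each time.

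Markers of the other cell types in liver showed few calls. Of 17 markers of sinusoidal endothelium Thbd rose and Kdr fell, of 9 bile duct markers Sox9 rose, of 8 erythroid markers Alas2 fell (-0.96 ± 0.26), of 15 lymphocyte markers Cd2 fell (-0.48 ± 0.15), and of 8 plasma cell markers Sdc1 (0.85 ± 0.21), which hepatocytes also make, rose and Mzb1 (-0.89 ± 0.19) fell. The 3′ to 5′ difference of Actb, a measure of RNA integrity, was 0.669, 0.452 and 0.575 log2 units in the PH arrays and 0.71 and 0.731 in the sham arrays, and that of Gapdh 0.177, 0.119 and 0.096 against 0.169 and 0.194. The groups did not overlap for Actb and overlapped for Gapdh, and the part of RNA integrity in the results was not tested. Of the 7 changed marker genes 4 and 2 passed without sham replicates 1 and 2, 3, 5 and 7 without PH replicates 1 to 3, and 2 each time.

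The same comparison was made in young livers of 24 h, and each age was compared with its own sham. Age and supplier cannot be told apart. Many genes and lists below were chosen with their change in these old arrays known, and the age difference uses the same arrays. For these, the gap between ages may be overstated by the choice. In young livers 0.588% of genes rose and 0.121% fell by the same test, and the difference between the ages, tested directly, passed for 0% of genes (limma, smallest adjusted p 0.252, 1677 genes at an unadjusted p under 0.05). With 1 array left out it passed for 13 genes without old sham replicate 1, 2 without old sham replicate 2 and 3 without young PH replicate 3. Igfbp1 was at 2.04 ± 0.71 in young livers against 4.76 ± 0.71 in old ones, a difference between ages of 2.72 ± 1.01 (adjusted p = 0.488). For Tnfrsf12a the values were 0.66 ± 0.56 and 3.23 ± 0.56, for Cxcl3 0.23 ± 0.89 and 4.12 ± 0.89, and for Pdk4 0.70 ± 0.99 and 3.91 ± 0.99, with adjusted p for the age difference of 0.444, 0.456 and 0.531. Thbd was at 3.25 ± 0.57 and 3.06 ± 0.57, and the difference of -0.19 ± 0.81 leaves room for a shift of more than 1 log2 unit either way. Egr1 was at 2.81 ± 0.72 in young and 2.95 ± 0.72 in old livers. On the side of the cell cycle Rrm2 was at 3.31 ± 0.60 in young livers (adjusted p = 0.0106) and 1.81 ± 0.60 in old ones, and Ccne2 at 1.85 ± 0.39 (adjusted p = 0.0249) and 0.23 ± 0.39, with differences between ages of -1.50 ± 0.84 and -1.62 ± 0.56 that did not pass (adjusted p = 0.565 and 0.464). Ccnd1 was at 1.75 ± 0.54 and -0.08 ± 0.54 (-1.83 ± 0.76, adjusted p = 0.525). Among genes that fell in old livers, Cyp8b1 was at -0.31 ± 0.68 in young livers, Prodh at 0.01 ± 0.50 and Tbx3 at -0.07 ± 0.50, with age differences of -2.77 ± 0.96, -2.06 ± 0.71 and -2.24 ± 0.70 and adjusted p of 0.468, 0.464 and 0.455. Other such genes were lower in young livers too. Tm7sf2 was at -0.71 ± 0.13 in young (adjusted p = 0.0106) and -0.76 ± 0.13 in old livers. Acss2 (-1.31 ± 0.57) and Nat8f1 (-1.26 ± 0.37) were lower in young livers without passing. The median of the pericentral list was 0.08 in young and -1.07 in old livers, that of the amino acid list -0.02 and -0.82, and that of the cholesterol list -1.53 and -0.89.

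Later old livers, each time with its own sham, placed these values in order of time. Cdkn1a was at 3.40 ± 0.46, 2.45 and 2.92 at 24, 38 and 48 h and passed each time, as did Tubb6 (3.17 ± 0.44, 2.80 and 4.05) and Mup10 (-3.55 ± 0.57, -2.13 and -3.27). Cxcl3 was at 4.12 ± 0.89, 1.61 and 0.04, and passed at 24 h only. Ifit3 was at -1.78 ± 0.24, -0.34 and -0.04, and the median of the interferon list at -0.84, -0.26 and 0.14. Cyp8b1 was at -3.08 ± 0.68, -3.28 and -1.76, the last without passing. Mki67 went the other way, at -0.30 ± 0.67, 2.03 and 4.82, passing at 48 h (adjusted p = 2.64e-05), and Cdk1 at -0.10 ± 0.50, 1.88 and 4.18. The median of 50 mitosis genes was -0.04, 0.92 and 2.69, and that of 46 S phase genes 0.09, 0.77 and 1.09. Differences between times were not tested.

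**Figure D5:**
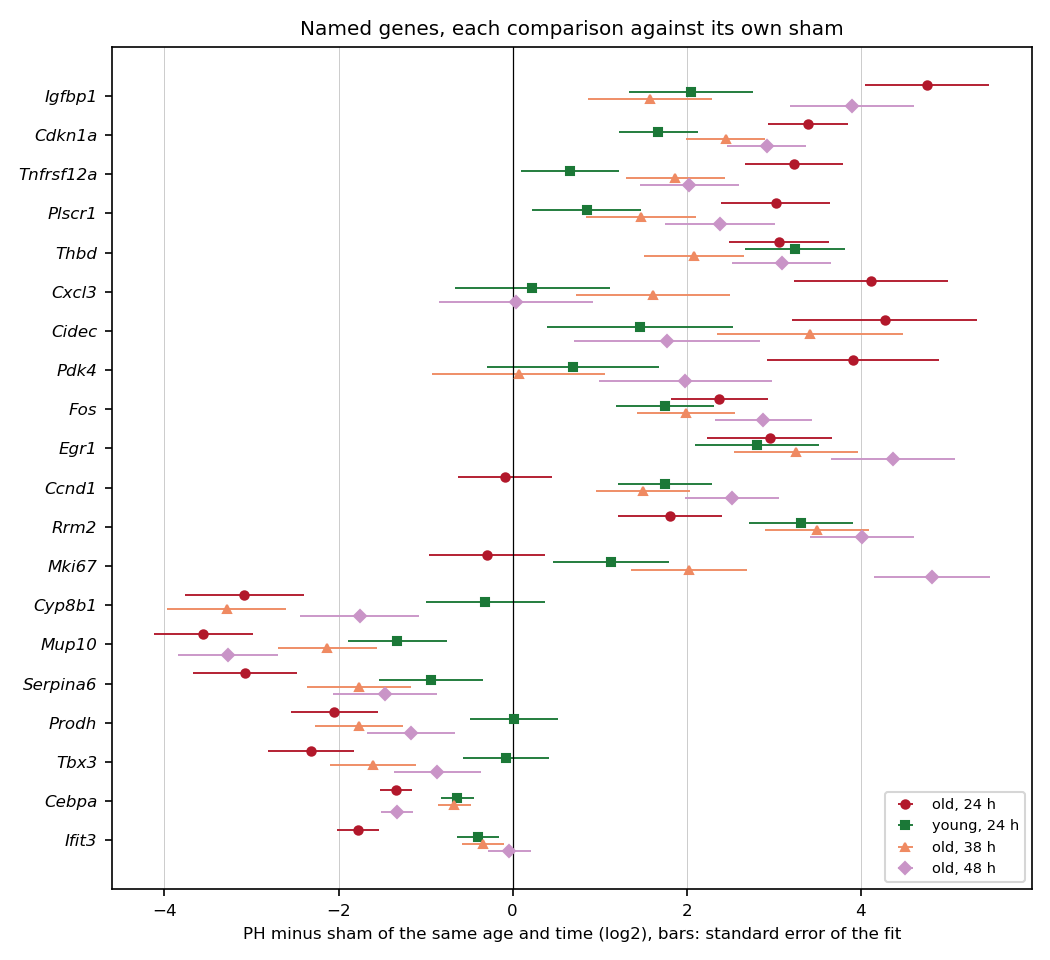
PH minus sham (log2, points) with the standard error of the fit (bars) for 20 named genes in old livers at 24, 38 and 48 h and in young livers at 24 h, each against its own sham. Igfbp1 stands at 4.76 in old and 2.04 in young livers at 24 h, and Mki67 moves from -0.30 at 24 h to 4.82 at 48 h in old livers.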

How the data were processed

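Liver RNA of 35 samples was hybridised to Affymetrix arrays of 45101 probe sets. The authors deposited log2 signals made with RMA, per the submitters' processing notes. The sources used here name neither the RMA version nor whether all arrays were normalised together. The number of arrays limits the precision. Control probe sets (64) were left out, and gene symbols came from the platform annotation: 34945 probe sets had 1 symbol, 932 several and 9160 were not listed, and these last 2 kinds were not used. A gene was represented by its probe set of highest mean signal, and values of other probe sets are given for some genes only. From the deposited values a mean per group was fitted on all 35 arrays in 14 groups with limma 3.58.1 in R 4.3.3 (21 residual and 3.29 prior degrees of freedom), and every adjusted p comes from its moderated test with Benjamini-Hochberg adjustment over 18193 genes. The script was tested on simulated data. Promoters came from RefSeq (GRCm38.p6) by symbol, for 14452 genes.

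Genes were named by rule: the 12 largest rises and falls with arrays that did not overlap, the 6 largest each way among genes that passed in each fit with 1 compared array left out, up to 5 changed members per list (or the 2 brightest where none changed), of which not all are printed, and a fixed panel. Outside this rule, and chosen after their values were seen, are Hgf, Tgfa, Hbegf, Ereg, Btc, Rspo3, Tgfbr1, Bmp6, Hgfac, Erbb3, Insr, Klb, Cdk4, E2f3, Nr1h4, Glul, Lgr5, Cyp2e1, F9, F10, Proc, Serpinc1, Plg, Oas1a, Irgm1, Igtp, Irf9 and Oasl2, and the markers Apoa1, Adipoq, Lep, Mpo, Adgre1 and Cd68. The comparison, the members and the lists were chosen with earlier results of these data known. Some genes are not analysed here.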

Additional observations from a re-analysis of the deposited data

How the results depend on the processing

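The count of 2058 genes depended on how the spread was estimated and on the reference. It was 3136 with array weights, 1353 with group weights (added after seeing the data), 507 on the 18 old arrays and 1 on the 5 compared arrays, 5259 with the old shams of all times pooled and 4413 with untreated old liver as control. It ranged from 515 to 3859 with 1 compared array left out. It stayed within 1.5 times of 2058 with the mean of all probe sets (1875), every probe set (3015), a filter at the median level (2030), centred arrays (1883), repeated quantile normalization (1844), a trended robust prior (1939) and without the old PH arrays of 38 and 48 h (2966, added after seeing the data). The samples share only a replicate number: same-numbered arrays had deviations correlated at 0.022 and -0.057, and with the number as a replicate block 1970 genes passed. The age difference had 0 calls as reported and with the replicate block, and 0 to 13 with 1 array left out. With untreated liver as control the sign turned for Dusp1 (-0.59), Klf10 (-0.29), Nup160 (-0.09), Acot1 (-0.22), Gpx2 (0.16), Cry1 (-0.06), Casp2 (-0.00), Ecm1 (-0.01), Kif2a (-0.01), G6pc (-0.94) and Saa2 (1.85), and with the mean of probe sets for Cdk7 (-0.01). The causes were not tested. Of 174 named genes that passed, 28 did so in each fit with 1 compared array left out and 136 with group weights; none changed sign when 1 compared array was left out.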
